A study of Mus musculus with 16 samples.

Results

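The 41 mouse genes described here are a broad set of interferon-stimulated genes, among them Ifitm and TRIM genes, that leaves out several other interferon-induced families. The 41 were listed by gene symbol, and earlier results of these data were already known when the list was drawn up. Their shares of calls, set against those of all genes below, are therefore not those of a blind choice. All 41 were found among the 24681 symbols of the count table and passed the filter that left 15610 genes for testing. RNA had been sequenced from whole AU565(pv) xenografts, a human HER2-positive breast cancer line injected into the mammary fat pads of immunodeficient SCID mice, and the counts are of reads assigned to mouse genes. SCID mice lack mature T and B lymphocytes but keep macrophages, neutrophils and natural killer (NK) cells.

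All 16 mice carried the same xenograft, and the groups differed in what was injected into the peritoneum, so the comparisons ask how each drug and both together changed RNA of the tumour's mouse cells. The 4 vehicle mice (C) received both carrier solutions, D5W and PBS. The 4 trastuzumab mice (E) received 10 mg/kg of trastuzumab, an antibody against HER2, with D5W. The 4 panobinostat mice (P) received 15 mg/kg of panobinostat, an inhibitor of histone deacetylases, on days 0 and 1, with PBS. The 4 combination mice (PE) received both drugs, and all tumours were taken on day 2. The labels place the trastuzumab injection on day 0 in one field and on day 1 in another, so its exposure time is not known exactly. Each library is named by its group letter and its mouse number and held between 4848102 and 8140782 counts.

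Interferons bind cell surface receptors whose Janus kinases phosphorylate transcription factors of the STAT family. After type I interferon a complex that contains IRF9 binds the interferon-stimulated response element (ISRE) in promoters, whereas interferon gamma acts mainly on gamma-activated sites (GAS). The products of the induced genes attach the ubiquitin-like protein ISG15 to other proteins, transfer ADP-ribose, bind or cut foreign RNA, limit viral entry and release, and feed the proteasome. In a tumour, macrophages, fibroblasts and endothelial cells can all express them, and in whole-tumour RNA a change in the number of expressing cells and a change in RNA per cell cannot be told apart.

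Levels are given as CPM, counts scaled to a common library size, after trimmed mean of M values (TMM) scaling, which corrects library totals for composition. Values of 4 libraries follow the order C-3, C-6, C-21, C-29 for vehicle, E-12, E-15, E-20, E-24 for trastuzumab, P-4, P-7, P-8, P-13 for panobinostat and PE-2, PE-11, PE-16, PE-22 for the combination. Means are given with SD over n = 4 libraries, and each fold change is a log2 value whose standard error (SE) is approximate. A gene was called where edgeR's quasi-likelihood test gave an adjusted p under 0.05.

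Panobinostat raised most of these genes when its effect was averaged over mice with and without trastuzumab. Of the 41 genes, 23 were called higher and 0 lower, against 3.02% of all genes called in either direction and 2.08% called higher. At an unadjusted p under 0.05, 36 were higher, against 7.50% of all genes. All 41 had a positive log2 change, as did 49.5% of all genes tested, and their median change was 0.63 against 0.00 for all genes. The effect ran from 0.03 for Psme2 to 1.39 for Cmpk2. By role, the calls were 4 of 4 ADP-ribosylation genes, 3 of 3 nuclear body genes, 5 of 7 RNA and nucleotide genes, 3 of 5 ISG15 genes, 3 of 5 TRIM and Rnf213 genes, 4 of 6 genes linked to cell death or of mixed function and 1 of 5 membrane-associated genes. The galectin-related, proteasome activator and Nmi and Ifi35 pairs had none.

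**Figure D1:**
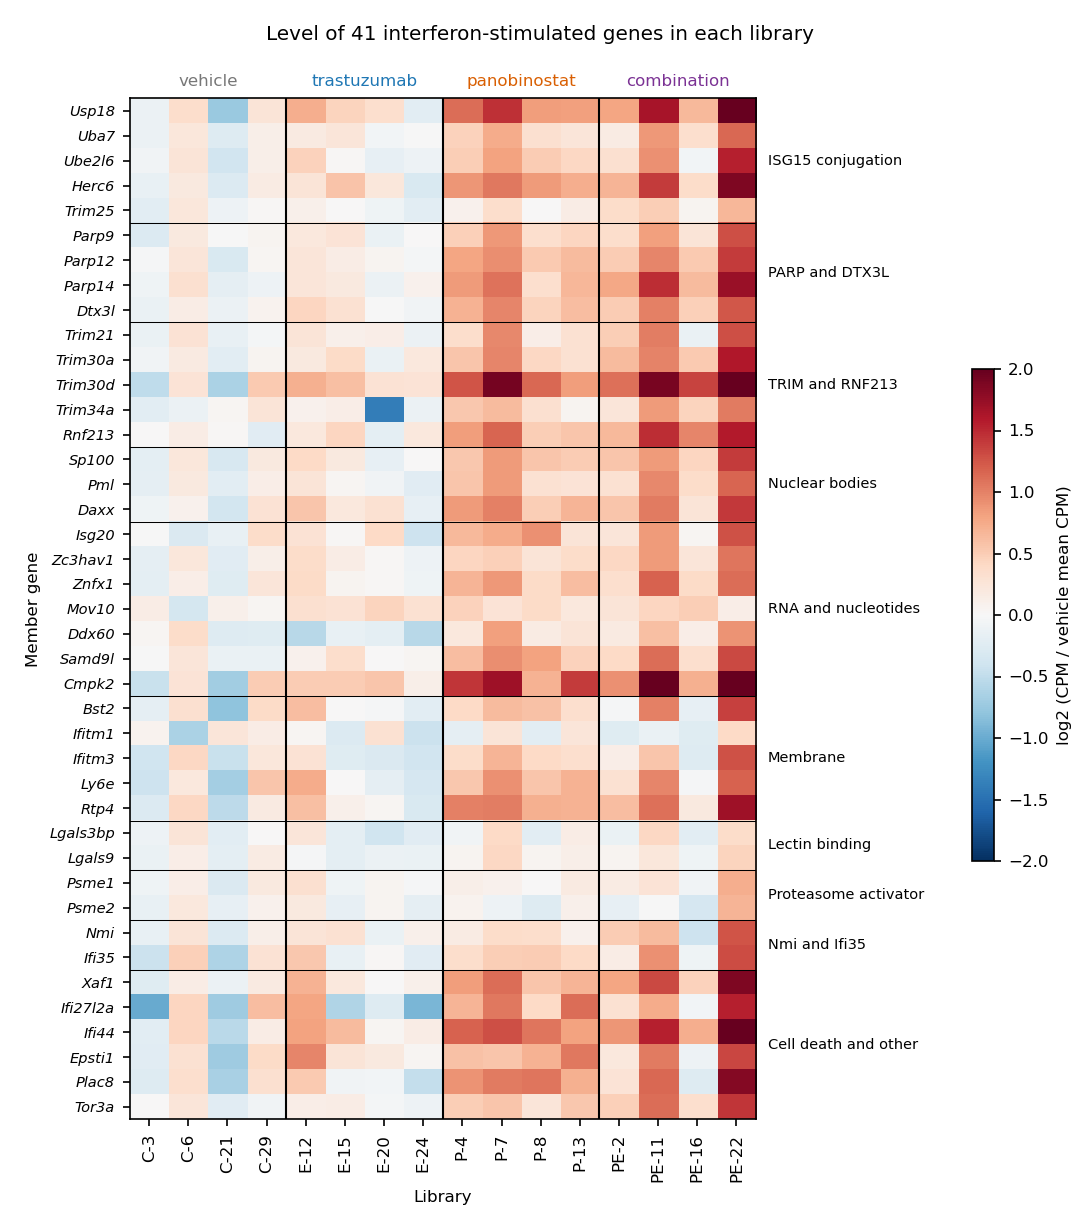
Level of each of the 41 genes (rows, grouped by role) in each of the 16 libraries (columns), as log2 of CPM over the vehicle mean CPM; the colour scale ends at -2 and 2. The panobinostat and combination columns are red for most genes, PE-22 is the darkest column, and the rows for Ifitm1, Mov10, Lgals3bp and Psme2 are among the palest.

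All 4 ADP-ribosylation genes were called higher. Parp14 encodes a mono-ADP-ribosyltransferase of macrophages and other immune cells. It stood at 75.7, 100, 70.6 and 74.4 CPM in vehicle, 94.4, 92, 74.1 and 85 in trastuzumab, 144, 170, 101 and 127 in panobinostat and 137, 223, 124 and 265 in combination libraries. Every panobinostat-treated library was above every library without the drug, although the gap between C-6, the highest untreated library, and P-8, the lowest treated one, was narrow. The averaged log2 change was 0.94 (SE 0.15, adjusted p = 0.00258).

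Parp12, an antiviral mono-ADP-ribosyltransferase gene, had 47.8, 57.1, 39.4 and 49.8 CPM in vehicle, 57.3, 53.8, 50.2 and 47.1 in trastuzumab, 83.5, 92.7, 69.5 and 75 in panobinostat and 69.1, 95.3, 69.7 and 128 in combination libraries. Its 8 treated libraries were all above its 8 others, and the log2 change was 0.76 (SE 0.12, adjusted p = 0.00246). Dtx3l encodes a ubiquitin ligase that pairs with the Parp9 protein. Dtx3l measured 42.1, 51.2, 42.7 and 48.3 CPM in vehicle, 61.9, 56.8, 45.8 and 44 in trastuzumab, 75, 91.2, 62.9 and 70.4 in panobinostat and 65.9, 92.6, 63.9 and 109 in combination libraries, again without overlap (log2 change 0.68, SE 0.12, adjusted p = 0.00430). Parp9 had group means of 63.3 ± 8.32, 67.9 ± 8.62, 92.3 ± 16 and 106 ± 36 CPM in the order vehicle, trastuzumab, panobinostat and combination, with a log2 change of 0.59 (SE 0.14, adjusted p = 0.0240), and its treated and untreated libraries overlapped.

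Of these genes, Parp14, Dtx3l and Parp9 are neighbours. On chromosome 16 of the GRCm38 build (mm10), Parp14 lies at 35832874 to 35871544, Dtx3l at 35926511 to 35939151 and Parp9 at 35938470 to 35972605. Parp9 and Dtx3l are transcribed in opposite directions, and 367 bases of their exons overlap. The library kit did not mark strand, so reads from that stretch could not be assigned to one of them.

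Among the TRIM and ring-finger ubiquitin ligases, 3 of 5 were called. Rnf213 encodes a very large ATPase and ubiquitin ligase of antimicrobial defence and had the smallest adjusted p of all members. Its values were 117, 129, 118 and 99.1 CPM in vehicle, 134, 157, 101 and 134 in trastuzumab, 208, 261, 163 and 170 in panobinostat and 181, 322, 228 and 350 in combination libraries. The lowest treated library, P-8, exceeded the highest untreated one, E-15. Rnf213 rose by 0.91 log2 units (SE 0.14, adjusted p = 0.00194).

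Trim30d belongs to a mouse cluster of TRIM genes on chromosome 7 together with Trim30a, which encodes a regulator of inflammatory signalling. Trim30d measured 5.82, 10.1, 5.38 and 12 CPM in vehicle, 13.6, 12.6, 10.2 and 10.1 in trastuzumab, 19.9, 31.3, 18.4 and 14.9 in panobinostat and 17.9, 30.9, 21.3 and 46.9 in combination libraries, with no overlap between treated and untreated libraries (log2 change 1.33, SE 0.22, adjusted p = 0.00294). Trim30a measured 82.5, 97.9, 74.6 and 89.8 CPM in vehicle, 98.2, 113, 78.5 and 100 in trastuzumab, 127, 169, 115 and 107 in panobinostat and 133, 171, 124 and 262 in combination libraries. Its P-13 value fell below E-15, so the groups overlapped, and its log2 change was 0.70 (SE 0.15, adjusted p = 0.0121). Of the 50-base exon stretches of Trim30a, 243 (5.98%) also occur in Trim30d, so counting could have moved some reads between them.

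The other TRIM genes did not pass. Trim21, the cytosolic antibody receptor gene, had group means of 20.9 ± 3.03, 22.4 ± 2.38, 29.1 ± 8.03 and 35.5 ± 14.2 CPM, with a log2 change of 0.57 (SE 0.17, adjusted p = 0.0887). Trim34a was the lowest member per length and gave 0.63 (SE 0.18, adjusted p = 0.0813). Its count is uncertain, since 39.8% of its exon stretches occur in Trim34b as well.

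The promoters of several members carry the ISRE core. Sequences of 6 promoters are shown, of which that of Ifi44 holds only a wider spacing. They come from both called and uncalled genes, with Trim30a and Trim30d shown because the pair is closely alike. RefSeq promoter windows on GRCm38.p6, from 250 bases before to 50 after each annotated start, were available for 34 of the 41 genes. Capitals mark TTTCNNTTTC on either strand (read as GAAANNGAAA on the other), or, in Ifi44, the wider spacing TTTCNNNTTTC. Each line gives 120 bases of the gene's own strand.

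Trim30a: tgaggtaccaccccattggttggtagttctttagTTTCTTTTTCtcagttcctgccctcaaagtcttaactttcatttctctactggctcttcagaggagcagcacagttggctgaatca

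Trim30d: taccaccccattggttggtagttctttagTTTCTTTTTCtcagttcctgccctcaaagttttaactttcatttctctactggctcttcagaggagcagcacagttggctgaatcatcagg

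Ddx60: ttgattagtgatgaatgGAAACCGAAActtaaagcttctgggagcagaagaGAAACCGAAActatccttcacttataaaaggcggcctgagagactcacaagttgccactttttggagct

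Ifi44: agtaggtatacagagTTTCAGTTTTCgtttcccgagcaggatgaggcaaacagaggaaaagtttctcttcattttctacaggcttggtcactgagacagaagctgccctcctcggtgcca

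Bst2: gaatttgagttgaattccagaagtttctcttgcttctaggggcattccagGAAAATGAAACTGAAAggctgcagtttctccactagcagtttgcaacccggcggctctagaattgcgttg

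Psme1: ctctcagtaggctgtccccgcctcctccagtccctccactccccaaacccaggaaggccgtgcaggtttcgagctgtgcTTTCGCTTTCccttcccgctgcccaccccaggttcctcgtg

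These windows lie at chr7:104465144-104465263 (minus strand), chr7:104507800-104507919 (minus), chr8:61928017-61928136 (plus), chr3:151749861-151749980 (minus), chr8:71537533-71537652 (minus) and chr14:55578424-55578543 (plus). The Bst2 window runs from -180 to -60 relative to the start, and the others run from -70 to 50. The whole 300-base windows of Trim30a and Trim30d were identical at 277 of 295 aligned bases (93.9%), and both hold the same 10-letter match, centred at -31 and -36. Ddx60 has a pair of matches, at -48 and -14. Bst2 has a pair of overlapping matches at -125 and -119.

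The ISRE core was found in 9 of the 34 genes with a window (26.5%), against 3.99% of the 27025 genes searched in the same way. The 9 were Trim30a, Trim30d, Trim34a, Trim21, Ddx60, Bst2, Ifitm3, Lgals9 and Psme1. Of the 18 called genes with a window, 3 held it, and of the 16 uncalled genes, 6 did. The median averaged log2 change was 0.57 for the 9 genes with a match and 0.65 for the 25 without. The wider spacing, searched after the Ifi44 window had been read, was present in 4 of 34 (11.8%, against 3.17%), namely Ifi44, Samd9l, Sp100 and Lgals3bp. The GAS core TTCNNNGAA was present in 4 of 34 (11.8%, against 9.55%). A match is a description of these letters, and windows without one may hold elements elsewhere. The genes without a RefSeq window are Usp18, Ifi27l2a, Parp9, Parp14, Rtp4, Ly6e and Tor3a.

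**Figure D2:**
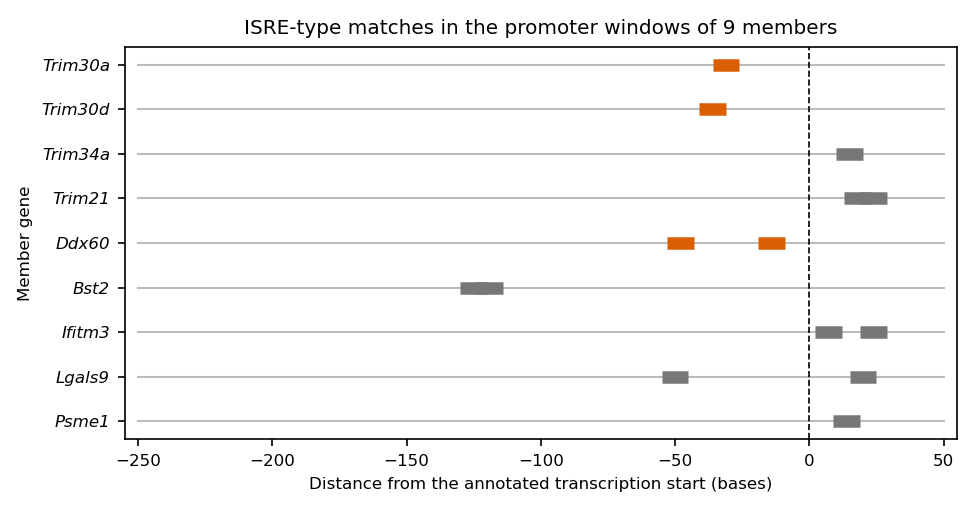
Position of each ISRE core match (bars) in the promoter window (grey line, 250 bases before to 50 after the annotated start, dashed) of the 9 genes that hold one; distances are in bases. Orange bars belong to genes called higher after panobinostat (Trim30a, Trim30d, Ddx60) and grey bars to uncalled genes; the second Trim30a window, with a match centred at 7, is not drawn.

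Conjugation of ISG15 needs an activating enzyme (Uba7), a conjugating enzyme (Ube2l6) and a ligase (Herc6 in the mouse), and is undone by Usp18, which also dampens the type I interferon receptor. Usp18 measured 21.1, 29.1, 13.7 and 27.4 CPM in vehicle, 37.8, 31.1, 28.7 and 19.8 in trastuzumab, 49.2, 62.6, 40.9 and 40.3 in panobinostat and 39.5, 71.2, 35.9 and 96.7 in combination libraries. Among the treated libraries only PE-16 fell into the untreated range, below E-12. Usp18 rose by 1.06 log2 units (SE 0.21, adjusted p = 0.00963).

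Herc6 measured 18.1, 23, 16.6 and 22.4 CPM in vehicle, 24, 29.8, 23.5 and 16.2 in trastuzumab, 37, 41.7, 36.1 and 33.1 in panobinostat and 32.1, 52.9, 25.7 and 73.3 in combination libraries. It rose by 0.93 log2 units (SE 0.18, adjusted p = 0.00921), with PE-16 below E-15. Some 12.5% of its exon stretches also occur in other annotated genes, chiefly the predicted gene Gm45193, which overlaps it. Uba7 was called as well, at 51.9 ± 7.64 CPM in vehicle, 55.3 ± 5.32 in trastuzumab, 71 ± 11.5 in panobinostat and 83.4 ± 26.2 in combination libraries (log2 change 0.52, SE 0.13, adjusted p = 0.0360). Ube2l6 missed the threshold with a log2 change of 0.65 (SE 0.18, adjusted p = 0.0686). So did Trim25, a ligase gene for ubiquitin and ISG15, with 0.30 (SE 0.09, adjusted p = 0.0963).

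The 3 genes of PML nuclear bodies, protein assemblies that silence incoming viral DNA, were all called. Pml, which encodes their scaffold, measured 29.3, 38, 28.6 and 36.3 CPM in vehicle, 39.7, 34.1, 31.4 and 28.2 in trastuzumab, 48.7, 59.7, 41.1 and 39.9 in panobinostat and 41, 64.4, 42.8 and 74.1 in combination libraries. Treated and untreated Pml libraries did not overlap, with P-13 just above E-12, and the log2 change was 0.63 (SE 0.13, adjusted p = 0.0147). Sp100, a permanent component of the bodies, did not overlap either: its means were 65.9 ± 12.5, 71.9 ± 11.9, 101 ± 11.7 and 120 ± 38 CPM (log2 change 0.68, SE 0.13, adjusted p = 0.00996). Daxx, a histone chaperone gene, had means of 30.8 ± 5.88, 36.5 ± 7.26, 52.4 ± 7.81 and 56.9 ± 20.2 CPM (log2 change 0.70, SE 0.15, adjusted p = 0.0176), and E-12 lay above PE-16, P-8 and PE-2.

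Of the 7 genes acting on RNA and nucleotides, 5 were called. Cmpk2 encodes a mitochondrial nucleotide kinase and changed by the most of all members. It measured 9.83, 16.2, 8.32 and 19.1 CPM in vehicle, 19, 19.1, 19.6 and 14.6 in trastuzumab, 36.2, 43.2, 21.8 and 35.2 in panobinostat and 25.2, 62.3, 21.9 and 85 in combination libraries. The lowest treated values, in P-8 and PE-16, lay above the highest untreated value, in E-20, and the averaged log2 change was 1.39 (SE 0.26, adjusted p = 0.00721).

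Samd9l, which encodes a cytoplasmic restriction factor for viruses, measured 77.7, 92.6, 71.6 and 71.9 CPM in vehicle, 83.3, 99.9, 78.7 and 80.6 in trastuzumab, 121, 150, 137 and 108 in panobinostat and 104, 170, 98.6 and 196 in combination libraries. Only E-15 reached the treated range, above PE-16, and the log2 change was 0.72 (SE 0.13, adjusted p = 0.00604). Znfx1, a helicase gene for sensing double-stranded RNA, had means of 76.5 ± 12.8, 82.1 ± 12.1, 120 ± 16.2 and 134 ± 41.5 CPM (log2 change 0.68, SE 0.13, adjusted p = 0.00963). Zc3hav1, whose product ZAP binds CpG-rich viral RNA, rose less, by 0.47 log2 units (SE 0.11, adjusted p = 0.0316).

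Ddx60, another helicase gene of RNA defence, measured 51.8, 65.2, 42.5 and 43 CPM in vehicle, 34.5, 45.9, 44.1 and 34.6 in trastuzumab, 58.3, 89, 56.5 and 60.4 in panobinostat and 57.3, 76.7, 55.3 and 94.2 in combination libraries. The vehicle library C-6 lay within the treated range, whereas every trastuzumab library was below it (averaged log2 change 0.61, SE 0.14, adjusted p = 0.0209). Isg20, an exonuclease gene, gave 0.62 (SE 0.18, adjusted p = 0.0686) and was not called. Mov10, an RNA helicase gene that restrains retroelements, had means of 38.5 ± 5.72 CPM in vehicle and 48.9 ± 2.58, 48.6 ± 3.77 and 48.5 ± 5.40 in the drug groups, and its averaged panobinostat change of 0.16 (SE 0.08, adjusted p = 0.405) was not called.

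Among the 5 membrane-associated genes, 1 was called. Rtp4, which encodes a receptor-transporting protein that also binds RNA, measured 40.7, 65.6, 34 and 55.5 CPM in vehicle, 74.7, 52.7, 50.6 and 39.8 in trastuzumab, 99, 99.9, 80.2 and 79.7 in panobinostat and 75.1, 105, 56.4 and 159 in combination libraries. Its panobinostat libraries were all above vehicle and trastuzumab, but PE-16 fell within their ranges (averaged log2 change 0.87, SE 0.19, adjusted p = 0.0190). A predicted gene, Gm45338, holds 11.6% of its exon stretches.

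Bst2, the gene of tetherin, which holds budding virus at the cell surface, measured 97.7, 139, 63.6 and 145 CPM in vehicle, 170, 111, 109 and 95.4 in trastuzumab, 147, 172, 167 and 140 in panobinostat and 109, 224, 98.6 and 286 in combination libraries. PE-16 and PE-2 lay among the untreated libraries and PE-11 and PE-22 above every other library, and the log2 change of 0.53 (SE 0.22, adjusted p = 0.273) did not pass. Ifitm3, which blocks fusion of viruses with endosomes, gave 0.56 (SE 0.19, adjusted p = 0.153), and Ly6e, a lipid-anchored surface protein gene, gave 0.62 (SE 0.21, adjusted p = 0.141). Ifitm1, the relative of Ifitm3, measured 7.83, 4.82, 8.84 and 8.30 CPM in vehicle, 7.67, 6.16, 9.16 and 5.56 in trastuzumab, 6.57, 8.92, 6.43 and 8.84 in panobinostat and 6.30, 6.83, 6.27 and 9.86 in combination libraries. All 4 groups overlapped, and the drug effect was 0.05 on the log2 scale (SE 0.16, adjusted p = 0.944).

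Of 6 genes linked to cell death or of mixed function, 4 were called. Ifi44, an interferon-induced gene whose role is not settled, measured 71.6, 111, 56.9 and 91.2 CPM in vehicle, 145, 128, 85 and 91.6 in trastuzumab, 188, 201, 173 and 145 in panobinostat and 152, 242, 136 and 403 in combination libraries. It rose by 1.08 log2 units (SE 0.21, adjusted p = 0.00771), with PE-16 below E-12. Xaf1, whose product binds an inhibitor of apoptosis, had means of 22.9 ± 3.25, 27.8 ± 6.21, 40.2 ± 6.87 and 53 ± 23.3 CPM and rose by 0.87 log2 units (SE 0.17, adjusted p = 0.00970).

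Tor3a, a torsin ATPase gene of the endoplasmic reticulum, measured 84.9, 99.5, 72.1 and 79.6 CPM in vehicle, 91.8, 93, 82.2 and 78.7 in trastuzumab, 118, 124, 99.7 and 122 in panobinostat and 117, 183, 106 and 227 in combination libraries. P-8 lay just above C-6, so treated and untreated libraries did not overlap (log2 change 0.67, SE 0.13, adjusted p = 0.0101). Plac8, a cysteine-rich protein gene of leukocytes, was called near the threshold and measured 99.3, 151, 75.6 and 149 CPM in vehicle, 171, 113, 115 and 85.2 in trastuzumab, 223, 245, 251 and 195 in panobinostat and 144, 265, 99 and 425 in combination libraries. PE-2 and PE-16 lay within the untreated range and the 6 other treated libraries above it (log2 change 0.95, SE 0.24, adjusted p = 0.0456).

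Ifi27l2a had the highest level per length of all members, 972 CPM per kb of exon in vehicle, against 1.89 for Trim34a, the lowest. Its library values were 223, 609, 275 and 692 CPM in vehicle, 774, 296, 376 and 239 in trastuzumab, 723, 933, 596 and 977 in panobinostat and 555, 749, 433 and 1320 in combination tumours. Within vehicle alone its libraries differed by a ratio of 3.11, and the averaged log2 change of 0.85 (SE 0.29, adjusted p = 0.160) did not pass. Epsti1, a gene first described from contact between epithelium and stroma, gave 0.52 (SE 0.21, adjusted p = 0.250).

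The proteasome activator, galectin-related and Nmi and Ifi35 pairs had no call in any comparison. Psme1 and Psme2 encode the subunits of the PA28 proteasome activator, which aids the cutting of antigenic peptides. Psme2 measured 129, 165, 128 and 151 CPM in vehicle, 164, 128, 148 and 126 in trastuzumab, 150, 133, 120 and 153 in panobinostat and 127, 142, 113 and 228 in combination libraries. PE-22 was its highest library and PE-16 its lowest, so the combination group enclosed the other 3 groups, and the log2 change was 0.03 (SE 0.13, adjusted p = 0.955). The related copy Psme2b holds 28.3% of the exon stretches of Psme2, so its count is uncertain. Psme1 gave 0.16 (SE 0.11, adjusted p = 0.572).

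Lgals3bp, which encodes a secreted glycoprotein bound by galectins, and Lgals9, the galectin-9 gene, gave averaged log2 changes of 0.17 (SE 0.13, adjusted p = 0.645) and 0.23 (SE 0.09, adjusted p = 0.228). Nmi and Ifi35, whose products bind each other and modulate cytokine signalling, gave 0.36 (SE 0.17, adjusted p = 0.364) and 0.52 (SE 0.20, adjusted p = 0.224). Ifi35 was narrow in panobinostat, from 39.4 to 43.6 CPM, and wide in vehicle, from 20.1 to 42.7 CPM.

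**Figure D3:**
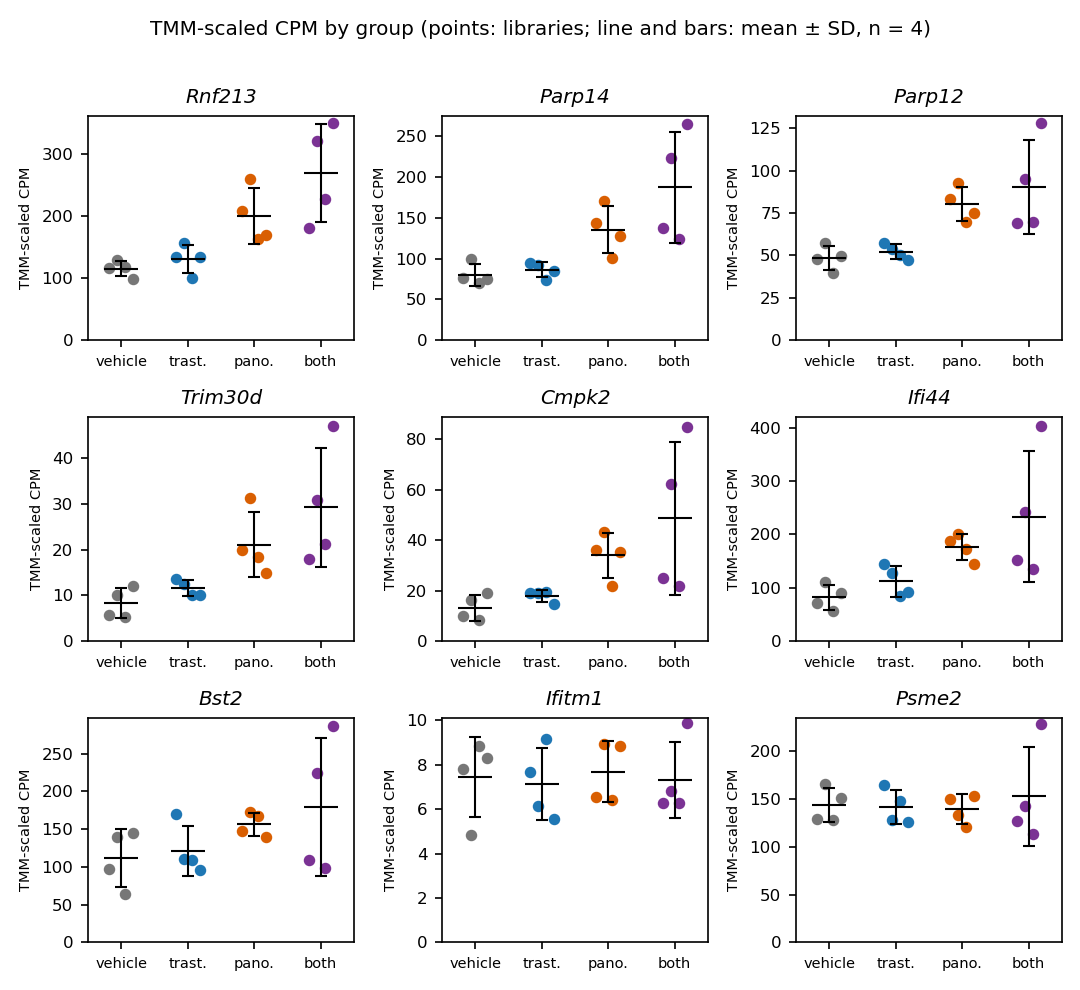
TMM-scaled CPM of 9 members in each library (points), with the mean and SD of each group of 4 (line and bars); each panel starts at 0. In Rnf213, Parp12, Trim30d and Cmpk2 every panobinostat (pano.) or combination (both) point lies above every vehicle and trastuzumab (trast.) point, while in Bst2, Ifitm1 and Psme2 the groups overlap.

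Of the 23 calls, 18 held without each of the 16 libraries in turn. Zc3hav1 passed in 6 of these fits, failing without C-3, C-21, E-15, E-20, E-24, P-4, P-7, P-13, PE-11 or PE-22 (adjusted p up to 0.0822). Uba7 passed in 5, failing without C-3, C-21, C-29, E-12, E-15, E-20, E-24, P-4, P-7, PE-11 or PE-22 (up to 0.0921). Plac8 passed in 3, those without E-12, PE-2 or PE-16 (up to 0.0978 otherwise). Parp9 was lost without E-20, E-24, P-7 or PE-11 (adjusted p up to 0.0598) and Ddx60 without PE-11 (0.0534). In 9 of 41 genes every panobinostat-treated library was above every untreated one, against 0.557% of all genes.

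Panobinostat alone raised no member past the threshold when set against vehicle, although most lay higher. Of the 41 genes 0 were called in either direction (background 0.192% in either direction and 0.141% higher), 27 were higher at an unadjusted p under 0.05 (background 4.59%), and 25 had all 4 panobinostat libraries above all 4 vehicle libraries (background 3.32%). The median log2 change was 0.59, against 0.01 for all genes, and 40 of 41 were positive (background 51.6%). The smallest adjusted p was 0.122, shared by Trim30d (1.33, SE 0.32), Parp12 (0.72, SE 0.17) and Dtx3l (0.70, SE 0.17).

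DESeq2 called 8 of the 41 in this comparison, namely Usp18, Parp12, Dtx3l, Trim30d, Rnf213, Samd9l, Cmpk2 and Ifi44, and limma voom called 0. DESeq2 called 147 of 16988 genes in all, and limma voom 3 of 15610. With edgeR the count was 2 when only these groups were fitted, of 58 genes called, and 3, of 72, without PE-22, a library outside the comparison that enters the shared estimate of spread.

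The combination raised 18 of the 41 genes above vehicle and lowered 0, against 2.20% of all genes called in either direction and 1.70% called higher. The median log2 change was 0.76, against -0.01 for all genes, 34 genes were higher at an unadjusted p under 0.05 (background 7.84%), and 40 were positive (background 49.0%). In 18 genes the 4 combination libraries all lay above the 4 vehicle libraries, against 4.27% of all genes, and of the called genes only Daxx overlapped. By role, 3 of 4 ADP-ribosylation genes, 3 of 5 TRIM and Rnf213 genes, 3 of 3 nuclear body genes, 4 of 7 RNA and nucleotide genes, 2 of 5 ISG15 genes and 3 of 6 genes of mixed function were called, and none of the 11 in the other roles was.

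Rnf213 led, with means of 116 ± 12.4 CPM in vehicle and 271 ± 79.1 in combination tumours (log2 change 1.22, SE 0.20, adjusted p = 0.00374). Trim30d rose by 1.81 log2 units (SE 0.31, adjusted p = 0.00550), Parp14 by 1.22 (SE 0.22, adjusted p = 0.00568) and Parp12 by 0.90 (SE 0.17, adjusted p = 0.00972). Ifi44 rose by 1.50 log2 units (SE 0.29, adjusted p = 0.0108) and Dtx3l by 0.85 (SE 0.17, adjusted p = 0.0123). Their 4 combination libraries, given above, were each higher than the 4 vehicle libraries. The other called genes were Cmpk2 (1.86), Usp18 (1.42), Xaf1 (1.21), Herc6 (1.20), Trim30a (1.00), Tor3a (0.92), Daxx (0.89), Sp100 (0.86), Samd9l (0.86), Znfx1 (0.81), Pml (0.75) and Zc3hav1 (0.68), with log2 changes in brackets and adjusted p from 0.0125 to 0.0465. Just past the threshold on the other side, Parp9 gave 0.74 (adjusted p = 0.0559), Uba7 0.69 (0.0625) and Rtp4 1.01 (0.0642).

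The count of 18 was 11 without C-3, 9 without C-21, 8 without PE-11 and 10 without PE-22. Calls over all genes, 343 in the main fit, were 244, 263, 202 and 239 in these fits. The member count was 3 (Parp14, Trim30d and Rnf213), of 127 genes called in all, when only these groups were fitted. It was 0 with a score of NK cell markers as a covariate, whose levels are given with the other cell markers. Rnf213, Trim30d, Parp14, Parp12, Ifi44, Cmpk2, Xaf1 and Trim30a passed whichever library was left out. Dtx3l was lost without PE-11 (adjusted p = 0.0534), Tor3a without C-21 or PE-11 (up to 0.06) and Usp18 without C-21, PE-11 or PE-22 (up to 0.0604). Herc6 and Sp100 were lost without C-3, C-21, PE-11 or PE-22 (up to 0.0658 and 0.0693). Samd9l needed the same 4 libraries and C-29 (up to 0.0937), Znfx1 the same 4 and C-6 (0.131), and Zc3hav1 the same 4, C-29 and E-15 (0.128). Pml was lost without any 1 of C-3, C-6, C-21, C-29, E-15, E-20, P-4, PE-11 and PE-22 (up to 0.166), and Daxx without any 1 of C-3, C-6, C-21, E-15, E-20, P-4, P-13, PE-11 and PE-22 (up to 0.132).

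Adding panobinostat to trastuzumab raised 4 of the 41 genes and lowered 0, against 0.628% of all genes called in either direction and 0.468% called higher. Rnf213 averaged 132 ± 22.8 CPM under trastuzumab and 271 ± 79.1 CPM under both drugs (a log2 change of 1.04, SE 0.20, adjusted p = 0.0344), and Parp14 averaged 86.4 ± 9.10 and 187 ± 67.8 CPM (1.12, SE 0.22, adjusted p = 0.0344). Tor3a rose by 0.88 log2 units (SE 0.19, adjusted p = 0.0449) and Parp12 by 0.80 (SE 0.17, adjusted p = 0.0449). In each of the 4 genes every combination library was above every trastuzumab library, as in 12 of the 41 members and 418 of all 15610 genes. The median of the 41 was 0.71, against 0.00 for all genes, and 31 were higher at an unadjusted p under 0.05 (background 5.18%).

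None of these 4 calls held without each library in turn. The count was 0 without E-15, E-20, E-24, PE-11 or PE-22, 1 without E-12, 2 without C-3, C-21, C-29 or any 1 of the panobinostat libraries P-4, P-7, P-8 and P-13, and 20 without PE-16. Calls over all genes, 98 in the main fit, were 4, 3, 12, 8 and 7 without E-15, E-20, E-24, PE-11 or PE-22. They were 76 without E-12, 42 to 66 in the fits with a count of 2, and 179 without PE-16. The member count was 17 by DESeq2, which called 219 of 17437 genes. It was 0 by limma voom, with the NK marker score as a covariate or when only these groups were fitted. Those fits called 11, 38 and 5 genes in all.

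Trastuzumab changed none of the 41 past the threshold. Against vehicle 0 were called (background 0% in either direction), with 1 higher at an unadjusted p under 0.05 (background 2.03%) and a median log2 change of 0.10, and DESeq2 and limma voom also called 0. That gene was Mov10, whose 4 trastuzumab libraries, at 48.1, 47.1, 52.7 and 47.6 CPM, were all above its vehicle libraries, at 42.9, 30.2, 41.3 and 39.7 CPM (log2 change 0.34, SE 0.12, adjusted p = 1.0). Averaged over panobinostat, trastuzumab gave 0 calls (background 0.147%), 2 genes at an unadjusted p under 0.05 (background 3.98%), Rnf213 (0.31, SE 0.14) and Trim30d (0.48, SE 0.22), and a median of 0.16, which was 0.06 without PE-22.

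Added to panobinostat, trastuzumab gave 0 calls (background 0%), with 3 genes at an unadjusted p under 0.05 (background 2.90%), namely Tor3a (0.45, SE 0.19), Parp14 (0.47, SE 0.21) and Rnf213 (0.43, SE 0.20), and a median of 0.20. The interaction, the part of the combination effect beyond the sum of the single drugs on the log2 scale, gave 0 calls (background 0%) and a median of 0.12. Mov10 alone reached an unadjusted p under 0.05 (-0.35, SE 0.16), with a negative value, as did 129 of all 15610 genes. DESeq2 and limma voom called 0 in these comparisons too. For Rnf213 the interaction was 0.25 (SE 0.28) and for Parp14 0.36 (SE 0.30), and neither was called. Without PE-22 the median of the interaction was -0.14, with 10 of 41 genes positive in place of 32, and that of the combination against panobinostat was 0, with 20 positive in place of 38.

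**Figure D4:**
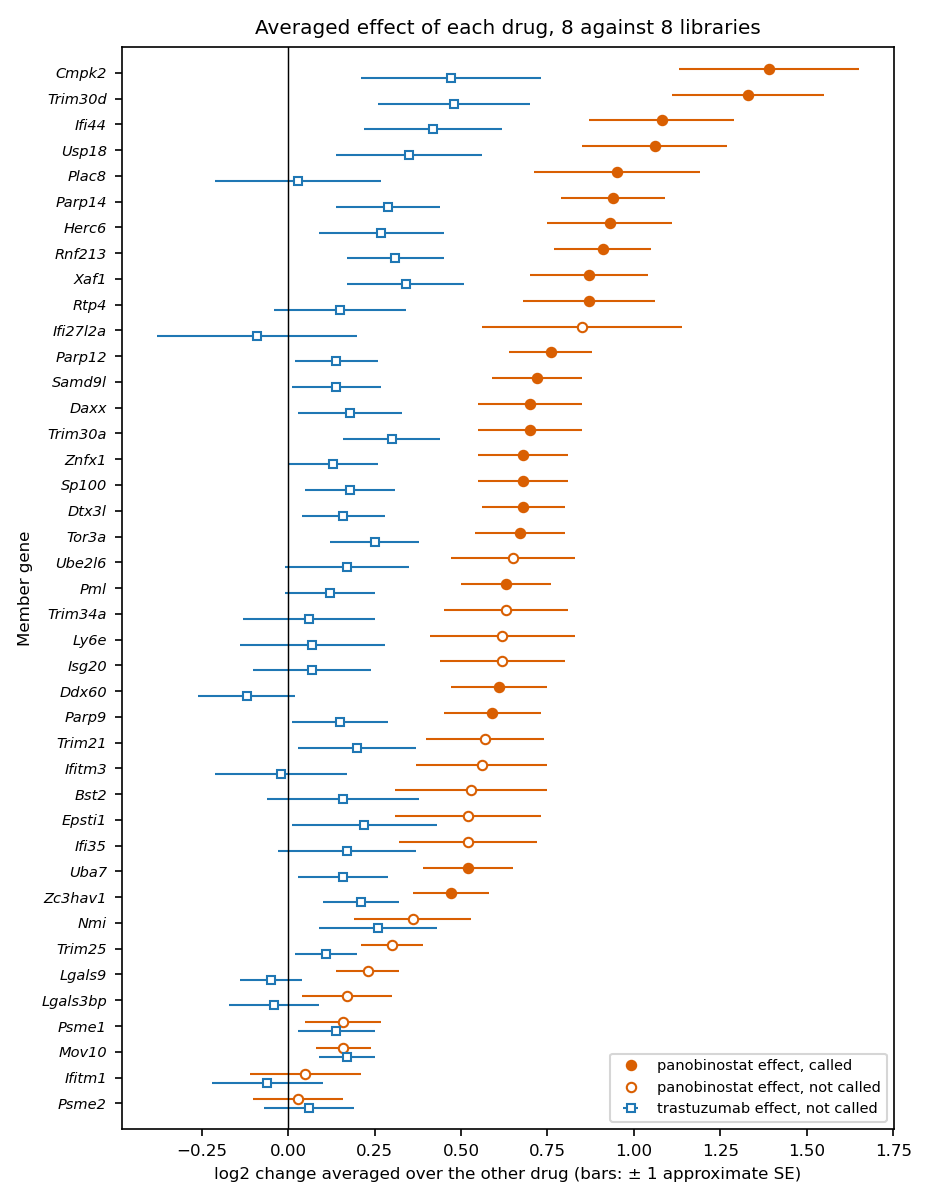
Averaged log2 change of each of the 41 genes after panobinostat (orange circles) and after trastuzumab (blue squares), each over 8 against 8 libraries, with bars of ± 1 approximate SE; filled circles are called genes. Panobinostat effects run from 0.03 (Psme2) to 1.39 (Cmpk2) with 23 filled, and no trastuzumab effect was called.

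The 41 genes moved together between libraries within a group. PE-22 had the highest value of all 16 libraries for 38 of the 41 genes, and C-21 the lowest for 24. In the combination group, PE-11 and PE-22 were both above PE-2 and PE-16 for 40 of the 41, the exception being Mov10. In the vehicle group, C-6 and C-29 were both above C-3 and C-21 for 32. The ratio of the highest to the lowest library had a median over genes of 2.13 in the combination and of 1.42, 1.44 and 1.39 in vehicle, trastuzumab and panobinostat, and reached 4.29 for Plac8 in the combination. PE-2 exceeded every vehicle library for 25 of the 41 genes and PE-16 for 21. None of the counts in this paragraph was made over all genes, so whether these orders are particular to the 41 was not tested. Over all genes, PE-16 and PE-22 were also the most different pair of libraries within a group.

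The mean log2 CPM of the 41 genes was 5.54, 5.92, 5.41 and 5.88 in vehicle, 6.07, 5.85, 5.71 and 5.6 in trastuzumab, 6.28, 6.52, 6.16 and 6.2 in panobinostat and 6.11, 6.66, 5.94 and 7.04 in combination libraries. All panobinostat libraries were above all vehicle and trastuzumab libraries, whereas PE-16 was below E-12.

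Markers of NK cells were high in the same combination libraries. The summed CPM of 8 NK markers ranged from 17 to 31.4 in vehicle, 20.4 to 88.4 in trastuzumab, 35.5 to 48.6 in panobinostat and 36.1 to 102 in the combination, where PE-11 and PE-22 held 102 and 87.6. Of the 7 NK markers tested, 2 were called in the combination against vehicle. They were the activating receptor gene Klrk1 (1.97, adjusted p = 0.00488) and the granzyme gene Gzmb (2.65, adjusted p = 0.0430). Klra8 had at most 3 counts in any library. Averaged panobinostat called 1 of the 7, Klrk1 (1.30, adjusted p = 0.00517). There Ncr1 gave 0.15, Eomes 0.14 and Gzma -0.26. Klrk1 and Gzmb are part of the NK marker score, and how far that score follows NK cell number was not tested. With the NK marker score as a covariate, chosen after the data had been seen, the combination called 0 of the 41 genes (median 0.45), the combination against trastuzumab 0 (median 0.56) and averaged panobinostat 19 (median 0.54). Over all 15610 genes the calls went from 343 to 77, from 98 to 38 and from 471 to 419. The median for trastuzumab against vehicle went from 0.10 to -0.07, and the members with a positive change from 32 to 11.

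Summed adipocyte markers ran from 358 to 992 CPM in vehicle and 323 to 1420 in trastuzumab. They ran from 386 to 1900 in panobinostat and 398 to 1280 in the combination. The sums were also high in PE-11 and PE-22 and in C-6 and C-29. P-13 had the highest sum, 1900 CPM, and the lowest panobinostat value for 18 of the 41 genes. With the adipocyte marker score as a covariate, the combination called 23 of the 41, averaged panobinostat 28 and panobinostat alone 4. Over all genes the calls went from 343 to 708, from 471 to 925 and from 30 to 217 of 15610. Summed monocyte markers were 248 to 307 CPM in vehicle, 420 to 495 in trastuzumab, 352 to 633 in panobinostat and 478 to 662 in the combination. The chemokine receptor gene Ccr2, with means of 251, 414, 432 and 503 CPM, made up most of these sums. In averaged panobinostat, 2 of the 4 genes were called higher, Ccr2 (0.53) among them, while Chi3l3 was lower and not called (-0.90, adjusted p = 0.304). Of 5 neutrophil markers tested in that comparison, S100a8, S100a9, Retnlg and Cxcr2 fell, with sums of 138 to 202, 154 to 226, 102 to 141 and 89.8 to 119 CPM. Fibroblast sums were 9520 to 12500 CPM in vehicle, 7940 to 13100 in trastuzumab, 6910 to 10100 in panobinostat and 7140 to 8610 in the combination, with Col1a2 called lower of 6 genes (-0.58, adjusted p = 0.0360). Dendritic cell sums were 75.8 to 110, 119 to 170, 103 to 127 and 151 to 180 CPM, mostly from Itgax, with means of 55.4, 98.2, 71.6 and 116 CPM. Of 7 genes, Itgax alone was called in the combination against vehicle (1.07). There 5 were positive, while Flt3 (-0.59) and Xcr1 (-0.53) were negative. Itgax was also called higher in averaged trastuzumab (0.76, adjusted p = 0.0243). The part of these monocyte, neutrophil, fibroblast and dendritic cell differences in the members' changes was not tested. Macrophage markers, at 3360 to 4830, 3210 to 3760, 3340 to 4060 and 3510 to 4720 CPM, had 0 of 8 called. Of 4 T cell markers with a value, Cd3d and Cd3g had at most 4 counts in any library, while Cd4 (28 to 313 counts) and Cd8a (2 to 28) were detected in all 16 and not called. The T cell sum was 15.4 to 42.9 CPM in vehicle and 7.5 to 34.1 in trastuzumab. It was 8.4 to 47.8 in panobinostat and 9.2 to 46.4 in the combination. Cd4 made up most of it, with group means of 28.8, 16.7, 17.7 and 24.6 CPM. Those of Cd8a were 1.18, 2.33, 1.28 and 2.13 CPM. The sum was 46.4 and 42.2 in PE-11 and PE-22 and 9.2 and 11.6 in PE-2 and PE-16. It was highest of all in P-13, at 47.8, and lowest of the vehicle libraries in C-29, at 15.4. Its part in the members' levels was not tested.

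**Figure D5:**
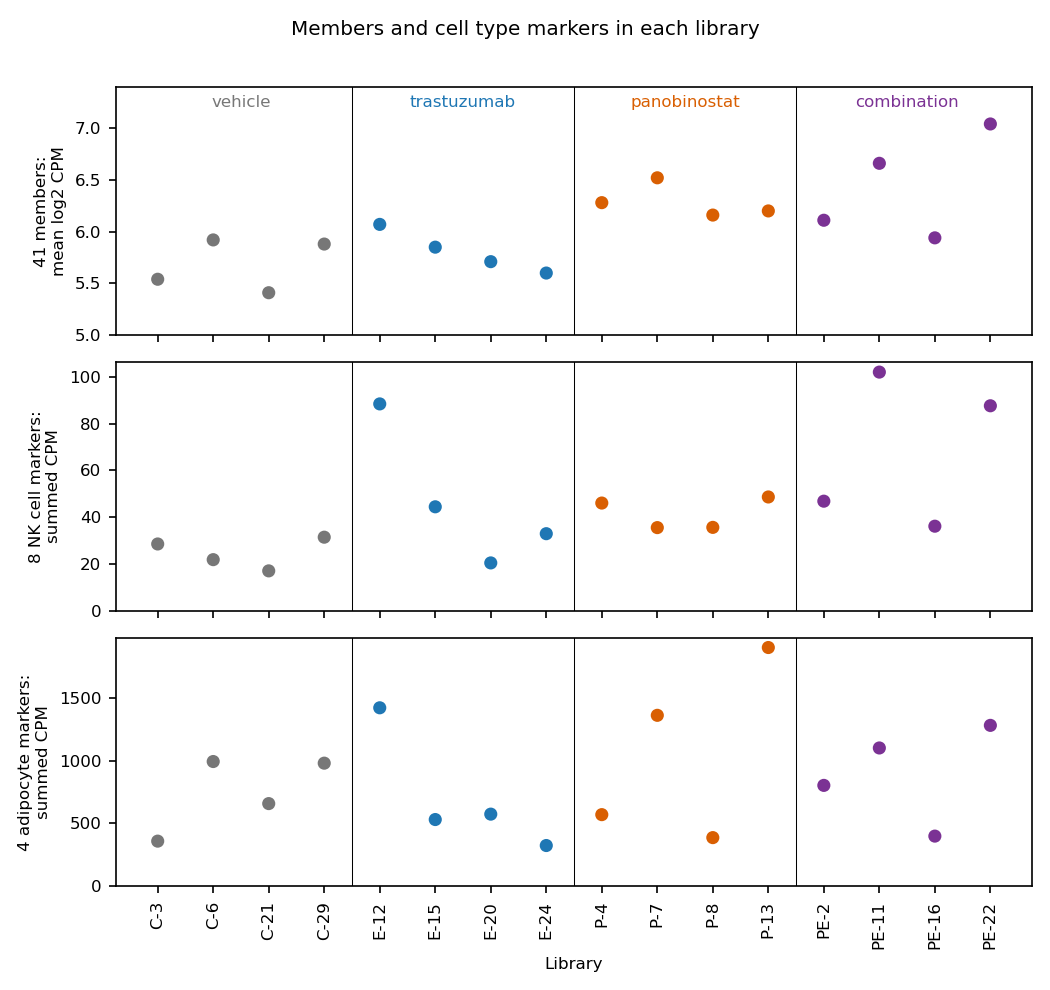
Mean log2 CPM of the 41 genes (top), summed CPM of 8 NK cell markers (middle) and summed CPM of 4 adipocyte markers (bottom) in each library. The 41 genes are highest in PE-22 (7.04) and PE-11 (6.66), where the NK sums are 87.6 and 102 and the adipocyte sums 1280 and 1100. The highest adipocyte sum is in P-13 (1900).

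Among genes of interferon signalling, averaged panobinostat raised Stat2, which encodes a component of the ISRE-binding complex (log2 change 0.92, adjusted p = 0.00294), the transcription factor gene Irf1 (0.71, adjusted p = 0.0198) and Isg15 itself (1.18, adjusted p = 0.0319). Stat2 (1.03) and Irf1 (1.03) were also called in the combination against vehicle, and Stat2 (1.11) in the combination against trastuzumab.

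None of the receptor and kinase genes of the pathway was called. In averaged panobinostat Ifnar1 gave 0.03, Ifnar2 -0.13, Ifngr1 -0.02, Ifngr2 -0.07, Il10rb -0.14, Jak1 -0.09, Jak2 0.05 and Tyk2 0.19. The interferon lambda receptor gene Ifnlr1 gave 0.50 there (adjusted p = 0.378) and 1.13 in the combination against vehicle (adjusted p = 0.101). Irf9, whose product is part of the ISRE-binding complex, gave 0.40 (adjusted p = 0.0526).

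The interferons themselves were barely measured. Of 21 interferon genes listed, 18 had no row under the symbol searched and 1 lacked a value in some libraries, so their levels are not known here. Ifnz and Ifng had a value in all libraries, and neither passed the filter. Ifng, the gene of interferon gamma, had 0 counts in each vehicle library, which over the group allows up to 0.125 CPM. It had 1, 3, 1 and 1 counts in trastuzumab libraries, 2, 2, 2 and 5 in panobinostat libraries and 1, 7, 1 and 6 in combination libraries. The 2 combination libraries with the most counts were PE-11 and PE-22, at counts too low for a test.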

How the data were processed

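The authors deposited whole-number counts of reads per mouse gene symbol for 16 libraries, of which 23354 of 24681 symbols had a value in every library and were used. Per the submitters' processing notes, CASAVA 1.8.2, TopHat2, HTSeq and the mm10 build were used. Aligner settings, and how human reads were kept apart, are given in none of the sources used here, and the share of human reads in these counts was not measured. Total counts ran from 4848102 to 8140782 per library.

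Genes were filtered with filterByExpr, which left 15610, scaled by TMM, and fitted over all 16 libraries with edgeR 4.0.16 in R 4.3.3 (glmQLFit, glmQLFTest, Benjamini-Hochberg over all tested genes, adjusted p under 0.05, no fold minimum). The common biological coefficient of variation was 18.3%. Each group held 4 mice. The approximate SE is the size of the log2 change over the square root of the F statistic. The fit was also run on simulated counts drawn independently for each gene. These do not cover genes that vary together between libraries, and no result here rests on them. Alternatives were DESeq2 1.42.0, limma 3.58.1 (voom), total-count and median-ratio scaling, no filter, only the groups compared, leaving out each library, and, added after the data were seen, NK and adipocyte marker scores (mean log2 CPM with a prior count of 2) as covariates. The members and the other gene lists were chosen with earlier results of these data known. By the rule used, the members with the smallest adjusted p in a comparison, up to 6, are given in full, and other-list genes where called or where they define a cell type. Exon lengths and overlaps come from GENCODE M21 and promoters from RefSeq (GRCm38.p6). Some genes of the marker and signalling lists are not reported here.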

Additional observations from a re-analysis of the deposited data

Results flagged for a closer look

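In 164 groups of 4 libraries (41 genes in 4 groups), 7 held a library whose distance from its nearest neighbour took up nearly the whole range of the group, and chance alone flags about 1 in 20 such groups. Of these, 6 were high and 1 was low. P-7 accounted for 4 of them, with Sp100 at 119 CPM (next library 96.7), Ddx60 at 89 (60.4), Ifitm3 at 374 (307) and Lgals9 at 185 (151). Parp14 stood at 100 CPM in C-6, above 75.7 in the next vehicle library. Ifitm1 stood at 9.86 CPM in PE-22, above 6.83. Cmpk2 was low in E-24, at 14.6 CPM against 19 in the next trastuzumab library.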

How the results depend on the processing

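No paired analysis was possible because each mouse number occurs once, so no number is shared between groups. For panobinostat against vehicle, the count of 0 genes became 8 with DESeq2, 2 with only the groups compared and 4 with the adipocyte score, and ran from 0 to 3 over the fits without 1 library. For the combination against vehicle, 18 became 3 with only the groups compared and 0 with the NK score, and ran from 8 to 26. For the combination against trastuzumab, 4 became 17 with DESeq2 and 0 with limma voom, only the groups compared or the NK score, and ran from 0 to 20. For averaged panobinostat, 23 ran from 18 to 29 without 1 library. In the same order, fits without 1 library called 3 to 72, 202 to 395, 3 to 179 and 329 to 480 of all genes. Trastuzumab, the combination against panobinostat and the interaction kept 0 calls under DESeq2 and limma voom. The cause of these shifts was not tested, and fits that leave some libraries out also hold fewer libraries.

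For trastuzumab against vehicle, the members with a positive change went from 32 to 11 with the NK score. Without PE-22 they went from 38 to 20 in the combination against panobinostat and from 32 to 10 in the interaction. In averaged panobinostat, in panobinostat or the combination against vehicle and in the combination against trastuzumab, the genes that changed sign were uncalled. Against vehicle, panobinostat gave Ifitm1 0.05 (-0.12 to 0.14 without 1 library, -0.01 with the adipocyte score), Psme2 -0.04 (-0.09 to 0.03) and Lgals3bp 0.08 (-0.04 to 0.18, -0.05 with the NK score). The combination gave Ifitm1 -0.01 (-0.2 to 0.09, 0.03 with total-count scaling, 0.01 with no filter, 0.02 with limma voom), Psme2 0.09 (-0.17 to 0.23, -0.1 with the NK score) and Lgals3bp -0.23 with the NK score. Against trastuzumab, the combination gave Ifitm1 0.05 (-0.14 to 0.18, -0.01 with the adipocyte score), Psme2 0.11 (-0.15 to 0.24) and Mov10 -0.01 (-0.06 to 0.05, 0.01 with total-count scaling, no filter or the NK score, 0 with only the groups compared, 0.02 with the adipocyte score). Averaged panobinostat gave Ifitm1 0.05 (-0.04 to 0.12, -0.01 with the adipocyte score) and Psme2 0.03 (-0.1 to 0.1, -0.04 with either score). The SE of averaged panobinostat was largest for Ifi27l2a (0.29) and Cmpk2 (0.26), and was 0.18 for Trim34a, the member with the lowest level per length.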
